A study of Mus musculus with 6 samples.

Results

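The cells described here were Lgr6 lineage keratinocytes from back skin whose nerves were left in place. They were chosen by label: the 3 libraries named normal, 1 from each of animals 890, 892 and 899, of 6 libraries in all. The mice carried the Lgr6-EGFP-Ires-CreERT2 allele and the R26loxP-stop-loxP-tdTom reporter, so the Lgr6 locus drove both GFP and the inducible Cre, and tamoxifen marked with tdTomato the cells that had Lgr6 activity when it was given, together with their later progeny. Tamoxifen, 20 µg in 1 dose, was given to all 3 animals at postnatal day 42, and all had surgery through the back midline, in which the nerves to the left side were removed. At 4 weeks after that surgery the right side, with its nerves intact, gave the libraries below. They are therefore the intact side of operated animals and not of untouched mice, and the labels mention no sham dissection of that side. The tdTomato-labelled cells were stained for CD49f, the protein product of Itga6, and isolated, and their RNA was sequenced from poly(A) libraries. The labels give no age at collection and no gate for the CD49f stain, and nothing below sets these libraries against the left side.

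LGR6 is a receptor for R-spondins, secreted proteins that raise Wnt signalling by protecting Frizzled receptors from removal by the ligases RNF43 and ZNRF3. In mouse skin Lgr6 marks stem cells of the upper hair follicle isthmus and of parts of the interfollicular epidermis. Basal keratinocytes hold to the basement membrane through the integrin made of the products of Itga6 and Itgb4 and build their cytoskeleton from keratins 5 and 14. Cells that leave the basal layer switch to keratins 1 and 10 and then to the proteins of the cornified envelope.

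Levels are given in TPM, the transcript share of a gene scaled to a fixed total, which are scaled to gene length and so can be compared between genes. The 3 libraries held 26167593, 20724439 and 13801154 raw counts in animals 890, 892 and 899, and 3 counts, taken as the detection limit, equal 0.115, 0.145 and 0.217 CPM (counts scaled to the library total) there. Library 899 was the shallowest, so low values are least certain in it, and these limits cover counting error only. Of 24972 rows in the table, 11371 (45.5%) were present, meaning at or above 1 TPM in 3 of 3 libraries. A further 932 reached 1 TPM in 1 or 2 libraries, 12669 (50.7%) stayed below it in 3 of 3, and 8581 of these were listed at 0 in each library. The median over all rows was 0.581 TPM. The separate matrix of raw counts held at least 10 counts in some library for 65 of those 8581 rows, so nearly all zeros were low on both scales. By GENCODE gene type, matched by symbol for 24490 rows, 10983 of 20583 protein-coding genes (53.4%) were present and carried 94.7% of all TPM. Of 1140 long intergenic non-coding genes, 56 (4.91%) were present, with 0.181% of TPM.

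The markers of the sort and lineage were present in every library. Itga6 (chromosome 2, 71745616 to 71858416, plus strand, GRCm38) stood at 449, 436 and 449.5 TPM in animals 890, 892 and 899, a mean of 445 ± 7.46 (SD, n = 3), rank 287 of all genes. Its 3 values lay closer together than those of most genes. Krt5 (chromosome 15, 101707070 to 101712898, minus strand) reached 16408, 16653 and 17082 TPM and Krt14 (chromosome 11, 100203162 to 100207548, minus strand) 18809, 17409 and 18284 TPM. Lgr6 (chromosome 1, 134983301 to 135105276, minus strand) stood at 52.4, 45.5 and 41.8 TPM, a mean of 46.6 ± 5.40 (SD, n = 3) and rank 3088. Lgr6 was thus present in each library at a moderate level, highest in animal 890. The mice carried the reporter allele at this locus, and its effect on the Lgr6 level was not tested. In these bulk libraries, fewer cells of a type and less RNA per cell cannot be told apart, for Lgr6 or for any gene below. Reporter transcripts (GFP, tdTomato) and mitochondrial genes were not analysed here.

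Krt14 and Krt5 led the list of abundant genes, with means of 18167 ± 707 and 16714 ± 341 TPM (SD, n = 3), and all keratin genes together took 5.16 ± 0.0990% of TPM (SD, n = 3), with 17 of 55 present. The order of the pair depended on how reads were assigned. In the deposited TPM the ratio of Krt14 to Krt5 was 1.146, 1.045 and 1.07, above 1 in 3 of 3 libraries, whereas TPM rebuilt from the raw count matrix gave 1.05, 0.995 and 0.994. The other abundant keratins were Krt15, a keratin of basal and bulge cells, at 5282, 6402 and 6157 TPM and Krt10, of suprabasal cells, at 5159, 4518 and 4664 TPM. The level of Krt14 was 3.81 ± 0.143 times that of Krt10 (SD, n = 3).

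Genes with names of ribosomal proteins (Rpl and Rps) were the largest group, with 21.4 ± 1.11% of TPM (SD, n = 3). Of 106 rows so named 100 were present, and 16 were among the 30 most abundant genes. These 16 included Rplp1 (8387 ± 546 TPM), Rpl41 (6391 ± 507 TPM), Rps12 (5839 ± 384 TPM) and Rpl28 (5252 ± 419.9 TPM). The group was set by name alone, so it also held copies such as Rps27rt and any other gene so named. Ribosomal protein genes have many copies, and the share of the group was 13.5 ± 0.788% in TPM rebuilt from raw counts. There Rpl41 stood at 3431 ± 309 TPM and Rpl28 at 3130 ± 298 TPM, while Rplp1 and Rps12 stood at 8772 ± 642 and 5419 ± 366 TPM. Eef1a1, which delivers aminoacyl-tRNA to the ribosome, stood at 12877 ± 336 TPM, but at 7104 ± 243 in rebuilt TPM. Tpt1, a growth-related protein, stood at 8401 ± 226 TPM, but at 4361 ± 179 in rebuilt TPM. Mt2, a metal-binding metallothionein, reached 6856, 7044 and 6635 TPM. Lgals7, a galectin of stratified epithelia, reached 5885, 6622 and 6613 TPM, lowest in animal 890. B2m, the light chain of class I histocompatibility molecules, stood at 4673, 5196 and 5091 TPM, and Apoe, a lipid carrier, at 4785, 5297 and 4612 TPM. The actins Actg1 and Actb stood at 6149 ± 558 and 3936 ± 161 TPM, and at 966 ± 111 and 4226 ± 131 in rebuilt TPM. The level was concentrated: the single most abundant gene held 1.82% of TPM, the top 10 held 10.4 ± 0.153%, the top 100 held 38.6 ± 1.10% (SD, n = 3), and 207 genes held 50% of the mean. Means of at least 100 TPM were reached by 1355 genes and of at least 1000 TPM by 158.

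**Figure D1:**
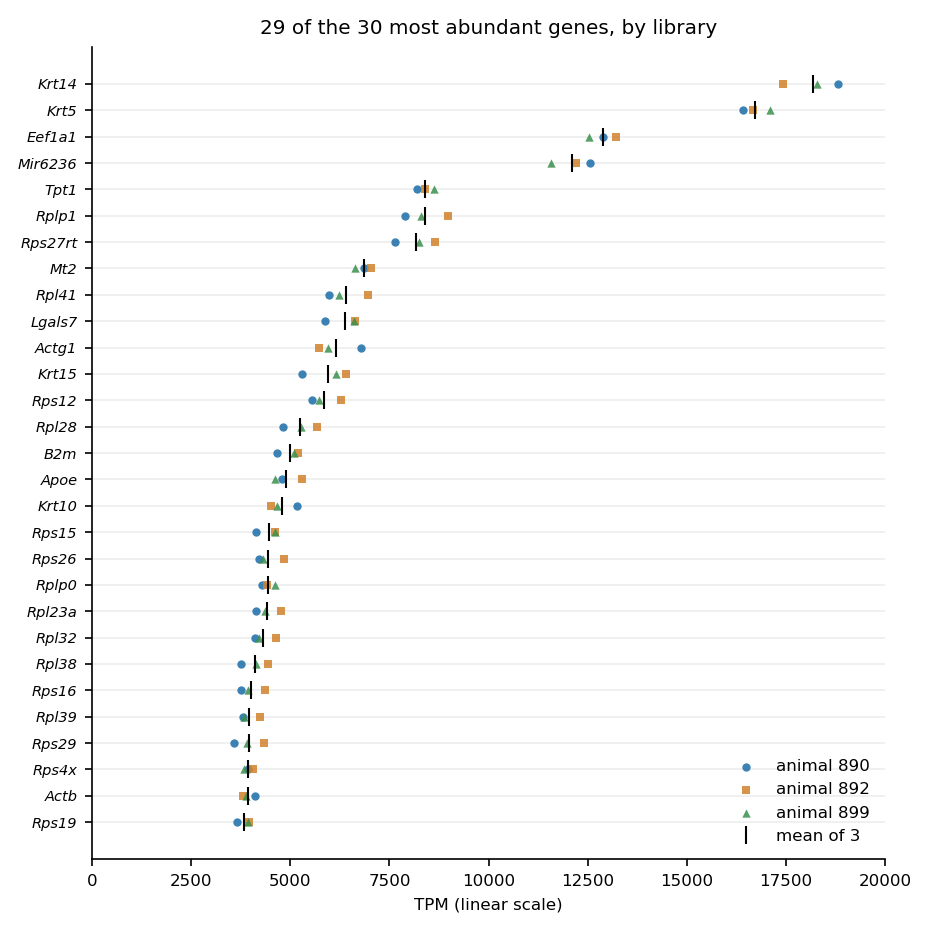
TPM (horizontal axis, linear) of 29 of the 30 genes with the highest mean, 1 row per gene, with a point for each of the 3 libraries and a bar at their mean. Krt14 and Krt5 lie apart at 16408 TPM or more in every library, and the points of most genes lie close together.

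Several of these ranks rest on how very short or multi-copy genes were quantified. Mir6236, the row of a microRNA gene, ranked 4th at 12554, 12204 and 11572 TPM, yet its raw counts were 975, 806 and 493, which gave it rank 5186 in CPM. The row spans 123 bases and the quantification used an effective length of 5 bases, so few reads make a large TPM. Mir703, with 2629, 2667 and 1964 TPM, was another such row. Their mature microRNAs are shown because these ranks could be taken for abundant mature microRNA, which poly(A) libraries do not measure. The sequences are those of RefSeq (GRCm38.p6), with the seed, bases 2 to 8, in capitals.
mmu-miR-6236, chromosome 9, 110281353 to 110281371, plus strand: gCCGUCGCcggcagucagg
mmu-miR-703, chromosome 5, 98475616 to 98475636, minus strand: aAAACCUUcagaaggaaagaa
The seeds of both differ, and neither sequence was itself counted. In all, 1432 rows had an effective length under 100 bases, 51 of them were present, and they held 4.35 ± 0.0274% of TPM (SD, n = 3). Copies of 1 gene were a second case. Rps27rt, a retrotransposed copy of a ribosomal protein gene, ranked 7th at 8173 ± 498 TPM with raw counts of 0 in 3 of 3 libraries. Actg1 had 0.146 times as many raw as estimated counts. Over 8217 genes found in both tables with a mean of at least 10 TPM, the median of that ratio was 1.02, so such genes were the exception: 149 lay below 0.2 and 31 above 5. Levels of the genes named in this paragraph, and of those above whose rebuilt TPM differ, are uncertain for this reason.

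Markers of the basal interfollicular epidermis were the most abundant of 8 lists of keratinocyte compartments: 20 of 20 were present, with a median of 374 TPM and sums of 55530, 55085 and 55950 TPM in animals 890, 892 and 899. Beside the keratins and Mt2, Col17a1, a hemidesmosomal collagen, reached 1918, 1668 and 1764 TPM and Cd9, a tetraspanin, 1478, 1588 and 1608 TPM. Infundibulum and isthmus markers were also present without exception, 16 of 16 with a median of 79.98 TPM. Defb6, a beta-defensin, stood at 1311, 1467 and 1630 TPM, lowest in animal 890 and highest in 899, and Krt17 at 1063, 916 and 1356 TPM. Defb6 is among the rows with an effective length under 100 bases (74), and its rank was 120 in TPM but 3300 in CPM. Sprr1a, a cornified envelope precursor, stood at 383 ± 46.2 TPM, Plet1, a surface protein of the upper follicle, at 378 ± 65.4 TPM and Krt79 at 322 ± 48.2 TPM (SD, n = 3). Postn, which encodes the matrix protein periostin, was at 271, 252 and 106 TPM, with animal 899 well below the others. Lrig1, an inhibitor of EGF receptors and a marker of the upper follicle, stood at 76.0, 69.7 and 67.5 TPM, higher than Lgr6 in each library.

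Markers of the lower follicle were lower. Of 26 bulge and hair germ markers 22 were present, but their median was 9.41 TPM, and apart from Krt15 no member reached a mean of 100 TPM. Nfib, a transcription factor of follicle stem cells, stood at 95.4 ± 7.90 TPM. Sox9 and Lhx2, factors of the bulge, stood at 19.7, 19.0 and 26.9 TPM and at 9.79, 9.98 and 10.4 TPM. Cd34, the surface protein used to isolate bulge cells, was at 6.32, 7.74 and 10.1 TPM. Lgr5, the relative of Lgr6 that marks cycling cells of the lower follicle, was at 0.775, 1.18 and 1.54 TPM, around the threshold, and Fgf5 was listed at 0. Of 9 companion layer and outer root sheath markers 8 were present, among them Krt16 at 529, 486 and 419 TPM and Krt6a at 173, 157 and 47.3 TPM (81.6 ± 44.3 in rebuilt TPM). Markers of the hair shaft and of the inner root sheath were mostly absent: 6 of 24 were present, with a median of 0.221 TPM. Gata3, which is also a factor of the epidermis, accounted for most of their sum at 274 ± 20.7 TPM, followed by Krt32 at 14, 21.1 and 20.4 TPM. Krt34, Krt36, Krt83 and Krt86, keratins of the hair shaft, were listed at 0, and Lef1, a Wnt effector of the hair matrix, was at 0.0518 ± 0.0206 TPM.

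Sebaceous gland markers were present for 17 of 20 genes with a median of 5.74 TPM. The higher ones serve lipid synthesis in other keratinocytes too: Fabp5 stood at 256, 220.1 and 162 TPM (114 ± 41.2 in rebuilt TPM), Scd1 at 135, 127 and 146 TPM, Acsbg1 at 116, 127 and 102 TPM and Fasn at 98.6, 84.9 and 107 TPM. Pparg, the receptor that directs sebocyte differentiation, was at 2.75, 2.50 and 1.8 TPM, and Awat2, a wax synthase of sebocytes, at 0.686, 0.828 and 1.64 TPM. Suprabasal and granular markers were abundant in spite of the stain for a basal integrin: 25 of 28 were present with a median of 52.4 TPM. After Krt10 came Krtdap, a secreted peptide of differentiating keratinocytes, at 2764, 2975 and 2840 TPM, and Krt1, the partner of Krt10, at 2316, 2186 and 2399 TPM. Krt77 stood at 1329, 1199 and 1393 TPM and Sbsn, or suprabasin, at 972, 1000 and 1156 TPM. Each of these 4 was close between animals. The cornified envelope genes Lor and Ivl were lower. Lor stood at 121, 126 and 261 TPM and Ivl, which encodes involucrin, at 19.7, 17.6 and 31.4 TPM, both highest in animal 899. Krt2, a keratin of the upper suprabasal layers, stood at 0.623, 1.05 and 0.431 TPM, and Lce3a was listed at 0. Of 15 touch dome and Merkel cell genes only Krt17, Tnc (3.04 ± 0.307 TPM) and Gli1 (2.23 ± 0.942 TPM) were present in 3 of 3 libraries. Atoh1 and Krt20, which define Merkel cells, were listed at 0, and Krt8 was at 1.53, 0.785 and 0.650 TPM.

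**Figure D2:**
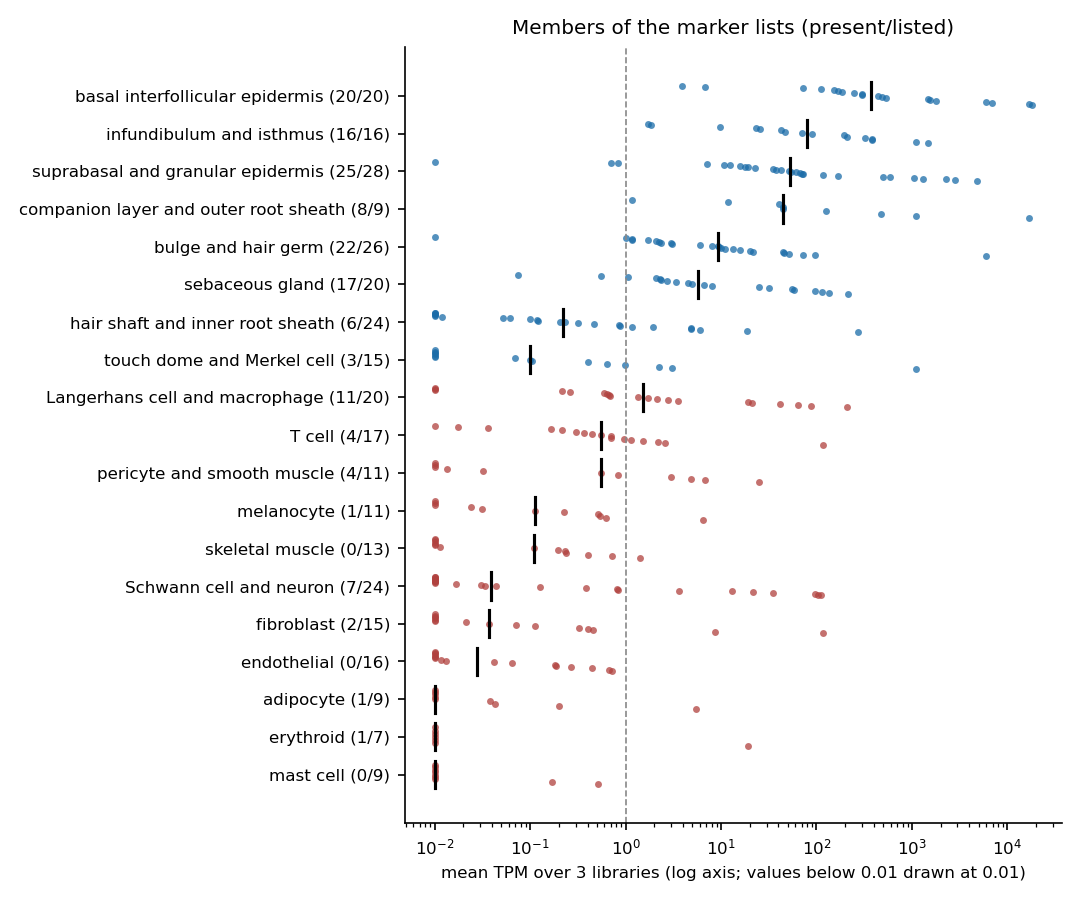
Mean TPM over the 3 libraries (horizontal axis, log scale) for each member of 8 keratinocyte compartment lists (blue) and 11 lists of other cell types (red), with a black bar at each list's median and a dashed line at 1 TPM. Means under 0.01 TPM are drawn at 0.01. Basal markers have the highest median, 374 TPM, and the medians of 10 of the 11 other cell type lists lie below 1 TPM.

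Markers of other cells of the skin were mostly absent. Of 148 such genes 30 were present (20.3%, against 45.5% of all rows and 53.4% of protein-coding genes). Another 107 of these markers were below 1 TPM in 3 of 3 libraries, and 50 were listed at 0. Their part in the levels of other genes was not tested. Langerhans cells, antigen-presenting cells of the epidermis, had the largest share of their list present. Their list had 11 of 20 genes present and a median of 1.54 TPM, with Cd207, the langerin that defines them, at 19.1, 14 and 25 TPM, Cd74 at 87.4, 63.1 and 114 TPM and H2-Aa at 63.8, 43.5 and 86.5 TPM. All of these 3 were highest in animal 899 and lowest in 892. Epcam, at 208 ± 14.3 TPM, is in that list but is also made by keratinocytes. Genes of that list shared by myeloid cells in general were present at low levels: Cd68 at 3.54 ± 0.587 TPM, Tyrobp at 2.75 ± 1.60 TPM, Fcer1g at 2.11 ± 0.635 TPM, Csf1r at 1.73 ± 0.565 TPM and Spi1 at 1.35 ± 0.386 TPM (SD, n = 3). Adgre1 was at 0.676 ± 0.245 TPM, and C1qb, Cd163 and Mrc1 were listed at 0. Of 17 T cell genes 4 were present: Thy1 at 138, 108 and 106 TPM, Cd7 at 2.56 ± 0.563 TPM, Cd3g at 1.42, 2.82 and 2.31 TPM and Cd3e at 1.10, 1.44 and 2.03 TPM. Cd3d was at 0.442 ± 0.543 TPM, Cd4 at 0.0174 ± 0.0301 TPM and Cd8a at 0.0363 ± 0.0629 TPM.

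Thy1 is also in the fibroblast list, where Fbln1 (8.66 ± 0.681 TPM) was the only other gene present. The collagen genes Col1a1, Col1a2 and Col3a1 stood at 0.321 ± 0.140, 0.402 ± 0.145 and 0.111 ± 0.182 TPM, and Dpt, Fbn1, Lum and Prrx1 were listed at 0. Defining Schwann cell genes were at or near 0, with Sox10 and S100b listed at 0. The 7 of 24 Schwann cell and neuron genes that were present were Egr2 (111 ± 11.2 TPM), Pmp22 (104 ± 9.38 TPM), Erbb3 (95.4 ± 11.3 TPM), Mbp (35.4 ± 0.560 TPM), L1cam (21.5 ± 4.68 TPM), Ngfr (13.1 ± 2.05 TPM) and Prx (3.65 ± 0.804 TPM). Of 16 endothelial genes none was present, with Pecam1 at 0.449 ± 0.236 TPM, Kdr at 0.0117 ± 0.0202 TPM and Cdh5 listed at 0. Of 11 pericyte and smooth muscle genes 4 were present: Notch3 (25.1 ± 1.8 TPM), which other cells make as well, Cspg4 (6.84 ± 0.259 TPM), Mcam (4.85 ± 0.493 TPM) and Acta2 (2.68, 2.58 and 3.61 TPM), the smooth muscle actin. Rgs5 and Myh11 were at 0.0134 ± 0.0118 and 0.0323 ± 0.0296 TPM, and Abcc9, Des and Kcnj8 were listed at 0. None of 9 mast cell genes and none of 13 skeletal muscle genes was present. Of 11 melanocyte genes only Mitf was present (6.43 ± 0.351 TPM), with Dct at 0.628 ± 0.314 TPM and Mlana listed at 0. Adipocyte genes were absent apart from Lpl (5.47 ± 0.630 TPM). Of 7 erythroid genes only Hba-a1 was present at 19.4 ± 2.72 TPM, but its raw counts were 0 in 3 of 3 libraries, and Hbb-bs, Hbb-bt and Alas2 were listed at 0.

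The receptor lists held 386 distinct genes, of which 385 had a row. Of these 187 (48.6%) were present, against 45.5% of all rows and 53.4% of protein-coding genes. The median of the 385 was 1.16 TPM, and 24 reached a mean of 100 TPM. Lgr6 ranked 52nd among them. Next above it stood Il12rb2, Lrp5, Epha4, Erbb2 and Trpm7, and next below it Met, Plxna1, F2r, Fzd10 and Tnfrsf21, between 56.2 ± 5.71 and 41.6 ± 5.28 TPM (SD, n = 3). Of these 10, Il12rb2, Lrp5 and Erbb2 were above Lgr6 in 3 of 3 libraries and Fzd10 and Tnfrsf21 in none, while the other 5 were above it in 1 or 2 and do not differ from it beyond their spread.

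Among 22 Wnt, R-spondin and Hedgehog receptors 18 were present, with a median of 22.5 TPM. Smo, the Hedgehog signal transducer, stood at 66.3, 58.2 and 63.3 TPM, and the Wnt receptors Fzd6, Lrp5 and Fzd10 at 58.2 ± 8.60, 54.3 ± 5.89 and 42.9 ± 6.57 TPM (SD, n = 3). Lgr4, the other R-spondin receptor present, was at 38.4, 32.8 and 32.2 TPM. The level of Lgr6 was 1.35 ± 0.0469 times that of Lgr4 (SD, n = 3), higher in 3 of 3 libraries, also when TPM were rebuilt from raw counts (1.36 ± 0.0494). The ligases that R-spondins counteract, Znrf3 and Rnf43, stood at 29.5 ± 2.81 and 28.4 ± 2.14 TPM. The R-spondin Rspo3 was present at 15.2, 14.8 and 12.5 TPM, while Rspo1, Rspo2 and Rspo4 were listed at 0. Of the 23 Wnt and R-spondin genes 12 were present, led by Wnt4 (105, 108 and 105 TPM), Wnt3 (104, 95.8 and 117 TPM), Wnt10a (91.1 ± 4.40 TPM) and Wnt7b (84.9 ± 3.81 TPM). Ligands, receptors and ligases of this pathway were thus all transcribed in the sorted population, though bulk values do not show whether in the same cells.

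The integrin subunits through which basal keratinocytes adhere led their family. Of 26 subunits 12 were present, with Itgb4 at 321, 279.5 and 301 TPM, Itgb1 at 226, 254 and 261 TPM and Itga3 at 155, 149 and 151 TPM after Itga6, then Itgav (57.4 ± 2.15 TPM) and Itgb6 (40.3 ± 9.86 TPM). Itgb4 RNA was 0.676 ± 0.0377 times that of its partner Itga6 (SD, n = 3). The leukocyte subunit Itgal was at 0.0627 ± 0.0274 TPM. Among 54 receptor tyrosine kinases 26 were present. Epha2, an ephrin receptor, led at 284, 271 and 264 TPM, followed by the fibroblast growth factor receptors Fgfr2 (193, 174 and 153 TPM) and Fgfr3 (162, 154 and 140.2 TPM) and the collagen receptor Ddr1 (180.0, 160.1 and 131 TPM). Fgfr2 was above Fgfr3 in 3 of 3 libraries, at 1.14 ± 0.0511 times its level (SD, n = 3). Ddr1, Fgfr2 and Fgfr3 were each highest in animal 890 and lowest in 899. Erbb3, a receptor for neuregulins, stood at 95.4 ± 11.3 TPM, and Egfr and Erbb2 at 79.98 ± 3.68 and 51.9 ± 5.66 TPM, a ratio of 1.55 ± 0.0976. The ligands of these EGF family receptors were led by Epgn, or epigen, at 523, 346 and 454 TPM, lowest in animal 892, and Hbegf at 160.4, 158 and 128 TPM. Of 11 EGF family ligands 8 were present, the neuregulin Nrg1 among them at 22.8, 16.9 and 32.1 TPM. Egf itself was at 0.188 ± 0.0590 TPM and Nrg3, another neuregulin, was listed at 0.

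Of 52 cytokine receptors 34 were present, 7 of them at a mean of 100 TPM or more. Il13ra1, a receptor chain for interleukins 4 and 13, stood at 215, 228 and 209 TPM, Ifngr1, for interferon gamma, at 201, 177 and 213 TPM, and Il1rl2, the interleukin 36 receptor, at 149, 136 and 133 TPM. Il20ra and Il20rb, whose products pair as a receptor for interleukin 20, stood at 136 ± 12.2 and 131 ± 13.2 TPM. Il1r2, a decoy receptor for interleukin 1, was at 197, 222 and 153 TPM. That was 4.65 ± 0.739 times the level of the signalling receptor Il1r1 (SD, n = 3), which stood at 41.8, 41.5 and 39.4 TPM. Among 25 TNF family receptors 16 were present. Tnfrsf12a, the receptor of TWEAK, was the most abundant of all receptors listed at 519, 517 and 605 TPM, highest in animal 899, and was followed by Tnfrsf1a (173 ± 12.3 TPM), Tnfrsf19 (156 ± 23.8 TPM) and Tnfrsf18 (111 ± 2.66 TPM). Among 20 pattern recognition receptors with a row, Nod2, a sensor of bacterial wall fragments, stood out at 154, 122 and 146 TPM and the next, Nod1, at 26.5 ± 2.33 TPM. Of 9 Toll-like receptors 3 were present, Tlr3 at 6.69 ± 1.36 TPM, Tlr5 at 2.16 ± 0.518 TPM and Tlr2 at 1.96 ± 0.569 TPM, while Tlr4 and Tlr6 were below 1 TPM, Tlr7 and Tlr8 were near 0, and Tlr1 and Tlr9 were listed at 0. Notch1 at 106, 103 and 96.6 TPM was above Notch2 (30.4 ± 3.60 TPM) and Notch3 (25.1 ± 1.8 TPM), and Notch4 was at 0.0441 ± 0.0576 TPM. Of 14 TGF-beta and BMP receptors 11 were present, led by Bmpr1a (65.5 ± 2.46 TPM), Tgfbr2 (62.0 ± 4.78 TPM) and Bmpr2 (57.9 ± 0.611 TPM).

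G protein-coupled receptors were sparse: 35 of 105 (33.3%) were present, with a median of 0.149 TPM. The share was 45.5% of all rows and 53.4% of protein-coding genes. F2rl1, a protease-activated receptor, stood at 151, 140.2 and 126 TPM, Ptger4, a prostaglandin E2 receptor, at 109.9, 67.2 and 74.8 TPM, and Adgrg1 and Ackr3 at 78.1 ± 11.5 and 62.0 ± 9.16 TPM. F2rl1 and Ptger4 were each highest in animal 890. Calcrl, part of the receptor for the sensory neuropeptide CGRP, was at 7.77, 5.72 and 7.81 TPM, and Tacr1, the substance P receptor, at 0.0229 ± 0.0272 TPM. Sensory and ligand-gated channels were sparser still, with 11 of 42 (26.2%) present. Trpm7 stood at 46.7 ± 1.38 TPM, the mechanically gated channel Piezo1 at 21.1, 17.6 and 25.3 TPM and the warmth-gated channel Trpv3 at 23.2, 14.9 and 19.6 TPM, while Piezo2, the channel of touch receptors, was at 0.00705 ± 0.00749 TPM and Trpv1 at 0.194 ± 0.151 TPM.

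Receptors and ligands of axon guidance and nerve growth were part of the same transcriptome. Of 36 neurotrophic and guidance ligands 25 were present with a median of 10.8 TPM. Sema3c, a class 3 semaphorin, led at 269, 284 and 262 TPM, followed by the chemokine Cxcl14 (195, 182 and 161 TPM), the ephrins Efna1 (159, 156 and 157 TPM) and Efnb2 (103 ± 4.46 TPM), and Sema3d (140.4, 154 and 138 TPM). Ngfr, a receptor of neurotrophins, was at 15.5, 12.1 and 11.7 TPM. The neurotrophin gene Ntf3 was at 18.3, 17.9 and 17.7 TPM and Bdnf at 0.588, 1.00 and 1.71 TPM, so only Ntf3 passed the threshold in every library. Gdnf, a survival factor of neurons, was at 12.6, 10.9 and 8.4 TPM. Sema3a, a repellent of sensory axons, was at 0.0403 ± 0.0270 TPM and Ntn1 at 0.0137 ± 0.0238 TPM. Of 21 semaphorin, netrin and Slit receptors 11 were present, led by the plexins Plxnb2 (106, 101 and 118 TPM), Plxnb1 (56.5 ± 3.03 TPM) and Plxna1 (44.8 ± 3.10 TPM) and by Robo1 (39.9 ± 0.390 TPM). Nrp1 was at 0.582 ± 0.0943 TPM, and Dcc and Robo4 were listed at 0.

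**Figure D3:**
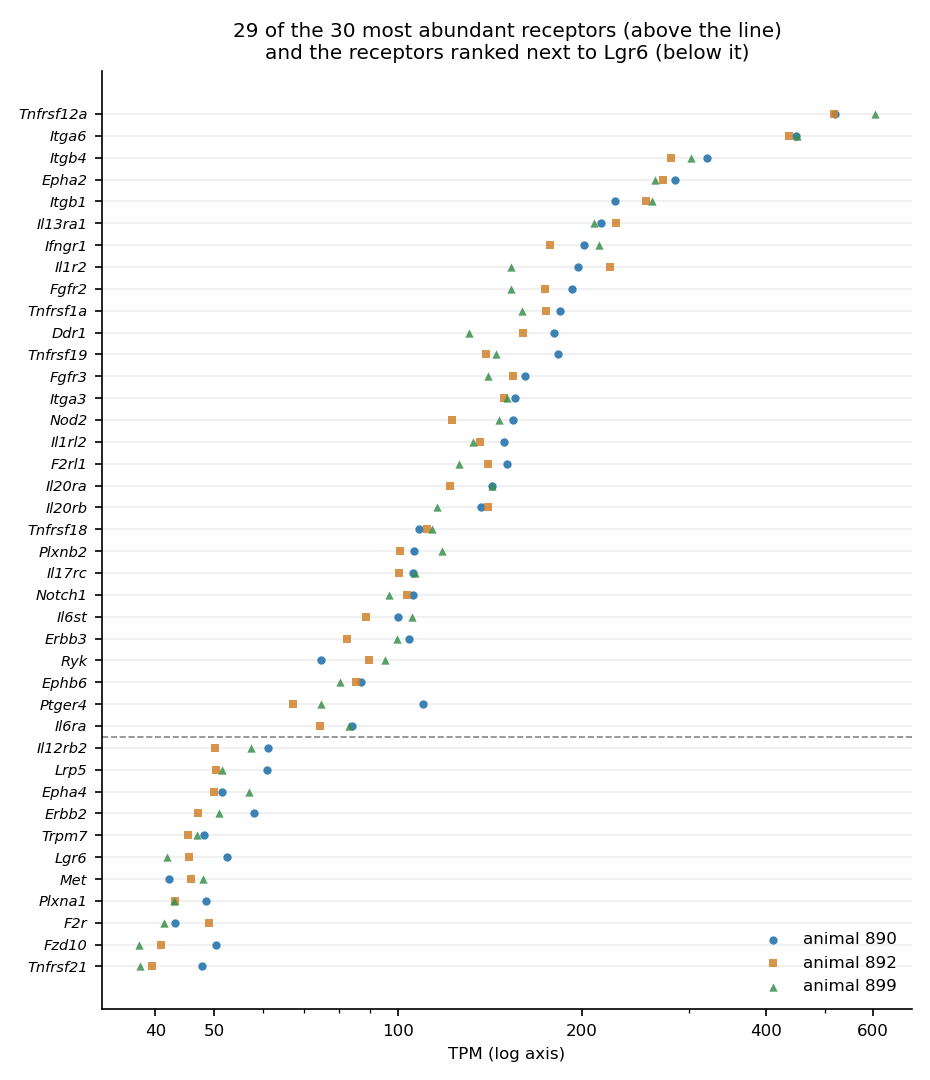
TPM (horizontal axis, log scale) in each of the 3 libraries for 29 of the 30 most abundant listed receptors (above the dashed line) and, below it, Lgr6 with the 5 receptors ranked next above and the 5 next below it. Tnfrsf12a and Itga6 lead, and the range of Lgr6, 41.8 to 52.4 TPM, overlaps that of each of its 10 neighbours.

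The transcription factor lists held 484 genes, with a median of 6.94 TPM. Of these 295 (61.0%) were present, against 45.5% of all rows and 53.4% of protein-coding genes. The 7 most abundant were immediate early genes, which cells switch on within minutes of a stimulus or of tissue dissociation. Fos, an AP-1 subunit, stood at 3643, 3399 and 2931 TPM. Atf3, a stress-induced factor that can pair with Jun proteins, stood at 3171, 2666 and 2288 TPM, and the orphan nuclear receptor Nr4a1 at 2749, 2527 and 1919 TPM. Each of these 3 was highest in animal 890 and lowest in 899. Egr1, a growth-response zinc finger factor, stood at 2067, 1538 and 1299 TPM. The AP-1 subunits Fosb and Junb were at 1586, 1385 and 1830 TPM and at 1875, 1282 and 1114 TPM, and Jun at 1568, 1200 and 1079 TPM. Of the 7, all but Fosb were highest in animal 890 and lowest in 899. The 7 AP-1 subunits were all present and together held 0.863% of TPM.

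Ranked next were Atf4, a stress-response factor (997 ± 48.1 TPM), Klf4, Klf6, Bhlhe40 (613 ± 142 TPM) and Fosl1 (601 ± 61.7 TPM). Klf4, which drives barrier formation and is also in the immediate early list, stood at 899, 911 and 933 TPM and differed little between animals, and Klf6, of the same list, and Klf5 stood at 751 ± 52.4 and 416 ± 48.7 TPM. Trp63, the master regulator of stratified epithelia, was at 523, 481 and 450.3 TPM, highest in animal 890. Gata3, a zinc finger factor of the epidermis, stood at 295, 253 and 275 TPM. The retinoic acid receptor Rarg was at 243, 247 and 235 TPM and differed little between animals. Others were Ets2 (486 ± 47.6 TPM), Tfap2c (134 ± 1.84 TPM), Grhl1 (78.3 ± 1.39 TPM) and Pou2f3 (109 ± 4.42 TPM). Ovol1, a zinc finger repressor of suprabasal cells, stood at 354, 162 and 243 TPM, and Hopx, an atypical homeodomain protein, at 121, 199 and 211 TPM. In animal 890 Ovol1 was highest and Hopx lowest. By family, 10 of 11 members of the p53, AP-2 and Grhl list, 31 of 35 AP-1, ATF and CREB genes and 23 of 26 Stat, Irf and NF-kappaB genes were present, against 7 of 20 Sox and 16 of 39 Fox genes. The leading Sox genes were Sox6 (54.4 ± 1.56 TPM), Sox21 (44.0 ± 6.57 TPM) and Sox4 (36 ± 1.65 TPM), and the leading Fox genes Foxn3 (108 ± 7.13 TPM), Foxn2 (42.2 ± 4.54 TPM) and Foxk1 (40.2 ± 4.70 TPM). Among the effectors of signalling pathways, Hes1, a Notch target, was at 284, 209 and 121 TPM with animals well apart, and Smad1 and Smad5 at 47.4 ± 1.87 and 44.6 ± 2.05 TPM. Of the Wnt effectors Tcf7 and Tcf7l2 stood at 14.8 ± 2.35 and 13.2 ± 1.45 TPM.

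Hox genes, whose expression records position along the body axis, were present for 18 of 39 and separated by cluster and number. In the A cluster 7 of 11 were present, paralogs 1 to 7, with Hoxa7 at 32.3, 31.2 and 25.1 TPM and Hoxa5 at 27.8, 19.3 and 24.0 TPM. In the B cluster 7 of 10 were present, paralogs 2 to 8, led by Hoxb2 (11.2, 13 and 11.8 TPM), and in the C cluster 4 of 9, between paralogs 4 and 8, led by Hoxc8 (14.8, 15.6 and 17.1 TPM). None of 9 D cluster genes was present. Hoxb9 was at 0.963, 4.63 and 4.80 TPM and so fell short of 1 TPM in animal 890 alone.

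Genes of the cell cycle and of the immediate early response were all present. All 20 S phase genes and all 20 mitosis genes were present, with medians of 22.8 and 19.8 TPM. Pcna stood at 319.8, 312 and 376 TPM, Top2a at 101, 74.2 and 76.7 TPM and Mki67 at 73.7, 51.3 and 58.8 TPM. Of the genes above 10 TPM, 13 of 15 in the S phase list and 14 of 19 in the mitosis list were lowest in animal 892, as were 3724 of 8231 genes of the whole table. All 33 genes of the immediate early and dissociation list were present, with a median of 718 TPM. The mRNA-decay factor Zfp36 stood at 3417, 2477 and 1942 TPM, Nfkbia, the inhibitor of NF-kappaB, at 1918, 1644 and 1856 TPM and the small heat shock gene Hspb1 at 1758, 1737 and 1480 TPM (937 ± 82.5 in rebuilt TPM). Of 32 such genes above 10 TPM, 26 were highest in animal 890 and 22 lowest in 899, against 3493 and 2838 of 8231 genes of the whole table, and the 33 genes summed to 36286 TPM in animal 890, 30391 in 892 and 26549 in 899. Sorting times per animal are not given in the labels, and their part in this was not tested. Interferon-induced genes were mixed, with 15 of 25 present and a median of 4.10 TPM: Ifitm3 was at 599.9, 576 and 584 TPM, Ifi27 at 153 ± 7.85 TPM and Psmb8 at 126 ± 6.71 TPM, while Ifit1 and Ifit3 were at 0.407 ± 0.369 and 0.0248 ± 0.0429 TPM. The labels used here give no sex. The Y-linked genes Eif2s3y, Ddx3y, Uty and Kdm5d were present in 3 of 3 libraries, between 12.7 ± 0.532 and 104 ± 3.71 TPM, and Xist was at 0.00386 ± 0.00668 TPM.

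The 3 libraries lay close together for most genes. Over 8231 genes with a mean of at least 10 TPM the coefficient of variation (CV), the SD divided by the mean, had a median of 0.0814, with 5th and 95th percentiles of 0.0220 and 0.242, and was below 0.1 for 62.5%. Counting error alone gives a median CV of 0.0304 at these depths. The biological coefficient of variation estimated by edgeR from the raw counts was 0.130 over 12169 genes. Across the 11371 genes present, Pearson's r of log2(TPM + 1) was 0.992 between animals 890 and 892, 0.985 between 890 and 899 and 0.986 between 892 and 899. These are correlations across genes, which are not independent replicates. Genes at least 2-fold apart numbered 69, 165 and 153 for the same pairs. Animal 899, the shallowest library, was thus the one that stood somewhat apart.

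A CV of at least 0.5 was reached by 90 genes, and by 56 without animal 899. The 15 with the largest CV under the naming rule included 8 short small RNA genes, among them Snord32a, Mir20a and Snora3, which were at 0 in 1 or 2 libraries and have very short effective lengths. Leaving out genes with an effective length under 100 bases lowered the 90 to 46. Among the protein-coding genes of those 15, S100a8, a calcium-binding alarmin, was at 33.8, 8.58 and 0 TPM, with raw counts of 75, 16 and 0. H2-Eb1, a class II histocompatibility gene, was at 45.9, 15.2 and 2.34 TPM, while H2-Aa (given above) and H2-Ab1, at 45.8, 31.2 and 47.2 TPM, other genes of class II, did not follow that order. Krt6b, a keratin of the companion layer and of stressed epidermis, was at 62.2, 57 and 1.43 TPM, with raw counts of 1067, 845 and 15. Its level is uncertain, because its close copy Krt6a shares reads with it. Serpina3i, a protease inhibitor gene, was at 17.8, 15.1 and 70.8 TPM.

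The rest of those genes, Lce1b, Lce1a2 and Lce1d, encode late cornified envelope proteins and were each highest in animal 899. Lce1b stood at 11.2, 22.6 and 69.2 TPM, Lce1a2 at 16.8, 17.2 and 65.9 TPM and Lce1d at 6.43, 11.4 and 33.1 TPM. Most of the family shared that order: of 11 Lce1 genes present, those named above among them, 10 were highest in animal 899. Of all 8231 genes with a mean of at least 10 TPM, 3051 were highest there. The summed level of the Lce1 genes was 160 TPM in animal 890, 208 in 892 and 611 in 899. Other families with members among the variable genes were looked up after these values were seen. Serpina3 genes summed to 272, 254 and 624 TPM. Krt6a and Krt6b together stood at 236, 214 and 48.7 TPM, and the stefin A genes, which encode cysteine protease inhibitors, at 907, 821 and 140 TPM. The stefin A genes were led by BC100530 (576, 471 and 42.8 TPM), Stfa3 (189, 209 and 92.0 TPM) and Stfa1 (137, 134 and 4.91 TPM). All were lowest in animal 899, but Stfa3 was highest in animal 892 and fell less in 899 than the others. H2-Q genes of the class I region summed to 1639, 1114 and 869 TPM. Of their 8 present members 7 were highest in animal 890, as were 3493 of the 8231 genes. H2-D1, at 2671, 2386 and 2475 TPM, was also highest in animal 890. H2-K1, at 929, 1159 and 1558 TPM, was highest in animal 899. Values of the H2-Q, H2-D1 and stefin A genes are uncertain, because near-identical copies share reads: rebuilt from raw counts the H2-Q sums were 626, 488 and 427 TPM and the mean of H2-D1 was 1072 ± 75.4 TPM. The causes of these differences between animals were not tested.

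**Figure D4:**
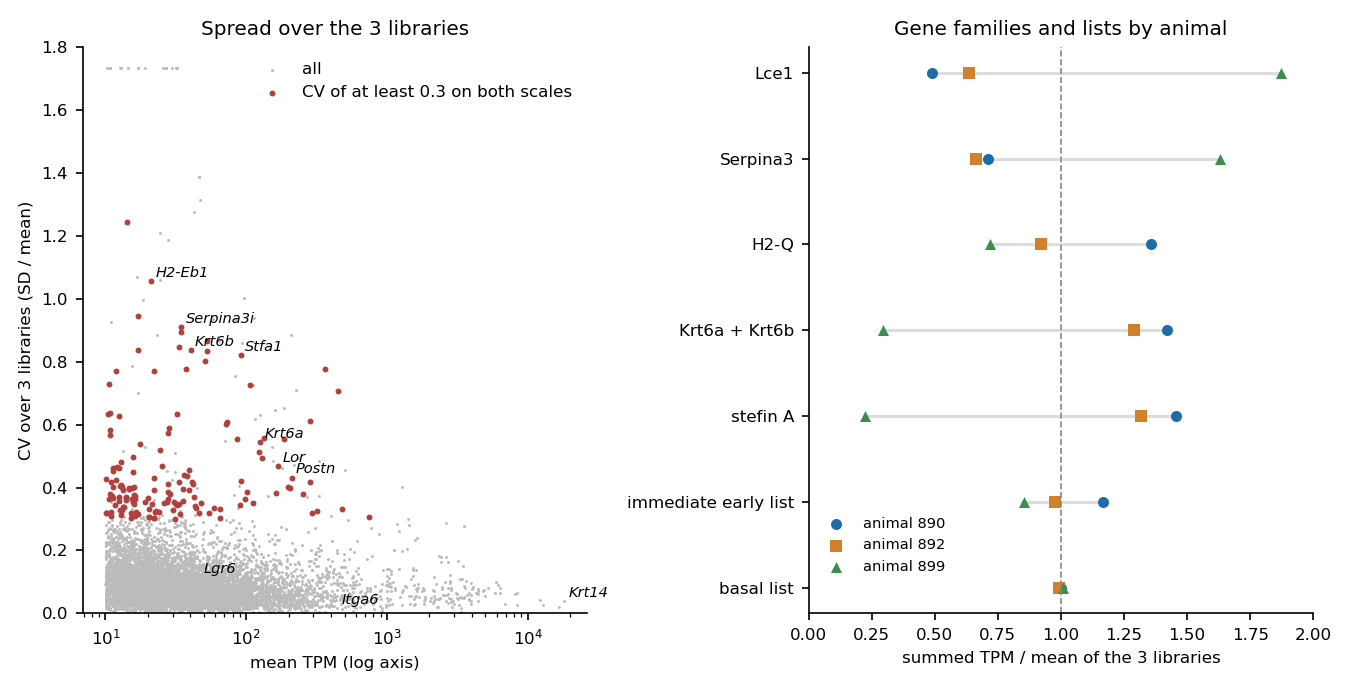
Left, CV over the 3 libraries against mean TPM (log axis) for 8231 genes with a mean of at least 10 TPM, with red points for the 149 genes that reached a CV of 0.3 both in the deposited TPM and in TPM rebuilt from raw counts. Right, summed TPM of 5 gene families and 2 lists in each animal, divided by the mean of the 3, where the basal list stays near 1 and the Lce1, Serpina3, Krt6 and stefin A genes set animal 899 apart.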

How the data were processed

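RNA from the tdTomato-labelled, CD49f-stained keratinocytes of 3 animals was used here, 1 library of the intact side per animal. Per the submitters' processing notes the tools were STAR 2.6.1a and Salmon 0.11.2 and the build mm10, with no role for either, and annotation and strand use are not stated there. The authors deposited a table of TPM values, which equals the TPM of the per-sample quantification files to within 0.0467 TPM, together with estimated counts and effective lengths per gene, per the file headers. They also deposited a matrix of raw counts per gene, with no counting tool named. In that matrix 26 names had been turned into dates, and these rows are not named.

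From the deposited TPM, means, SD and CV over the 3 libraries were computed with Python 3.11.15, pandas 2.3.3 and numpy 2.4.6. Raw counts divided by effective length gave a rebuilt TPM. TMM factors and the dispersion of the raw counts came from edgeR 4.0.16 in R 4.3.3, checked on simulated data. No test was made, because 1 group was described. Gene types and coordinates came from GENCODE (GRCm38) by symbol, and microRNA sequences from RefSeq. Of 1262 genes in 53 lists, 1261 had a row.

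The members and lists were chosen with earlier results of these data known. By rule, the text names the 30 most abundant genes, up to 6 leading and 6 near-zero members of each list, the first 3 of each list of other cell types, the 15 genes with the largest CV above 10 TPM, and Lgr6, Itga6, Krt5 and Krt14 with the receptors next to Lgr6. Some genes that the rule covers are not reported here, and figures leave them out. Named outside the rule, after their values were seen, were Adgre1, Awat2, BC100530, Bdnf, Calcrl, Cd34, Cd68, Cd8a, Csf1r, Egf, Egfr, Fcer1g, Gdnf, H2-D1, H2-K1, Hoxb9, Ifit1, Il1r1, Ivl, Krt2, Lgr5, Lhx2, Lor, Lrig1, Mir703, Nrp1, Ntf3, Pparg, Prx, Rnf43, Spi1, Stfa1, Tacr1, Tcf7, Tcf7l2, Tlr2, Tlr4, Tlr5, Tlr6, Trpv1, Tyrobp and Znrf3, and the genes of the closing section. Alternatives were other thresholds, scales and filters and leaving out each library.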

Additional observations from a re-analysis of the deposited data

How the results depend on the processing

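Of 94 values recomputed under alternatives, 74 stayed within their set limits, and the counts of genes, compartment markers, receptors and transcription factors present were among them under each alternative run. These limits were wide for counts. Receptors present numbered 144 at a threshold of 5 TPM and 222 at 10 raw counts in each library, instead of 187. Transcription factors present numbered 250 and 312 under the same alternatives, instead of 295. Markers of other cell types present numbered 17 at a threshold of 5 TPM and 46 at 10 raw counts in each library, instead of 30. The share of the 100 most abundant genes was 33.6% in TPM rebuilt from raw counts and 22.9% in CPM, which are not scaled to length. Rebuilt TPM were 53.2 for Lgr6, 470.2 for Itga6 and 17010 for Krt14. Without genes of effective length under 100 bases, an alternative chosen after seeing the data, Itga6 stood at 465 TPM, Krt5 at 17475 and Krt14 at 18993, since the remaining TPM were rescaled. The median CV was 0.0991 with a filter at a mean of 1 TPM and 0.142 with none, and 0.0616 to 0.0703 when 1 library was left out. Genes with a CV of at least 0.5, 90 as reported, numbered 251 in rebuilt TPM, 415 above a mean of 1 TPM, 3771 with no filter, 46 without the short genes, and 56 (without animal 899) to 118 (without 892) when 1 library was left out. No paired analysis was possible because the libraries form 1 group and no comparison was made. With 3 animals an SD is itself imprecise, and library 899, with 13801154 counts, limits what can be said of low genes.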

Other observations

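Genes that varied between the animals lay near each other on the genome more than once, which is given as values with no test. On both the deposited and the rebuilt scale, 149 of 7864 genes reached a CV of 0.3. In windows of 5 Mb (GRCm38), 412 of 508 windows held none of them and 11 held 3 or more, with 51 of the 149. The fullest window, chromosome 3 from 90000001 to 95000000, held 16 among its 45 genes (35.6%, against 1.90% of all genes placed). These encode cornified envelope and S100 proteins: Lce1 genes, Lor, Ivl, Sprr1b, Kprp, Crct1 and S100a8 among others. The next, chromosome 17 from 35000001 to 40000000, held 6 of 45 (13.3%), among them H2-Q1, at 97.3, 49.8 and 10.01 TPM in animals 890, 892 and 899, H2-T10 and H2-T23. The window before it on chromosome 17 held 5 of 61, among them H2-Eb1, H2-Aa and Glo1, which encodes glyoxalase 1, at 86.8, 93.9 and 219 TPM. Smaller groups of 3 were Serpina3b, Serpina3h and Serpina3i on chromosome 12, from 100000001 to 105000000, and BC100530, Stfa1 and Stfa3 on chromosome 16, from 35000001 to 40000000. Neighbouring genes of 1 family share sequence, so their values are not independent of each other.

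Of the circadian clock, 4 genes are given here, chosen after their values were seen. In animals 890, 892 and 899 the activator Arntl stood at 69.0, 72.5 and 74.7 TPM, close together. The repressor Nr1d1 stood at 482, 389 and 351 TPM, and the output factor Dbp at 30.9, 13.5 and 22.1 TPM, where animal 892 was lowest. Per2 stood at 2.93, 1.20 and 4.24 TPM, a low level at which counting error is larger. Collection times per animal are not given in the labels.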
